A study of Mus musculus with 20 samples.

Results

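Follicular helper T (TFH) cells sorted from the spleens of immunized mice were set against CD4 single-positive (CD4SP) thymocytes, and every gene whose larger group average was 10 or more normalized counts was described. The rule kept 14212 of the 39179 genes in the deposited table. TFH cells are the CD4 T cells that enter B cell follicles and deliver the CD40 ligand, IL-21 and IL-4 signals that sustain germinal centers. They are programmed by the repressor Bcl6 together with the activators Ascl2, Maf, Batf and Tox2, whereas the Blimp-1 (Prdm1), Foxo1, Klf2 and IL-2/STAT5 pathways oppose this fate. CD4SP thymocytes are the immediate products of positive selection: they lose the recombination and CD8 programs, scan the medulla through Ccr7, and leave the thymus as naive T cells. In both populations the basic helix-loop-helix E proteins (Tcf3, Tcf12, Tcf4) and their antagonists Id2 and Id3 set developmental checkpoints.

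The TFH libraries were 3 samples, taken from wild-type C57BL/6 mice that had been immunized with sheep red blood cells and sorted from spleen as CD4+TCRb+CD44highCXCR5+ cells. The control libraries were 5 CD4SP samples, sorted from thymus as CD4+TCRb+CD8- cells, and labelled wild type on the same C57BL/6 background. The series also holds 12 further libraries, given as averages of CD4SP thymocytes labelled Id3 knockout (Id3KO), of CD4SP thymocytes lacking Id2 and Id3 (dKO), and of lymphomas. The expression values in the table are 1 average per gene and group, as the authors computed it. The spread between libraries could not be computed from them, so no test was run and differences are described by their size alone. Organ, immunization and differentiation state all differ between the groups and cannot be told apart, and the labels give no age for either group; the control thymi came from mice described as 8 weeks old. The labels call the controls wild type, but the study also names Id3+/- thymi beside its TFH libraries, so whether every control was Id3+/+ is not settled here. Because whole sorted populations were measured, fewer cells of a type and less RNA per cell cannot be told apart.

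Values are normalized counts, that is, read counts divided by a scaling factor per library. Differences are given as log2 ratios, log2((TFH + 1)/(control + 1)), which understate the difference of genes with few counts. A log2 ratio of 1 or more (2-fold) was called higher in TFH cells and one of -1 or less was called lower. The 2 columns summed to 13386015 normalized counts for TFH cells and 13456863 for control CD4SP cells, and the median log2 ratio over kept genes was -0.02. Of the kept genes, 12529 reached the minimum in both averages, 877 reached it in the TFH average alone and 806 in the control average alone. At the border of the rule, Gm2694 was just inside with 4.96 normalized counts in TFH cells and 10.0 in control CD4SP cells, and Ranbp17 was just outside with 9.998 in TFH cells and 8.76 in control CD4SP cells.

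In all, 1719 genes (12.1%) were 2-fold or more higher in TFH cells and 1324 (9.32%) were 2-fold or more lower, while 11169 were within 2-fold, so that 21.4% of kept genes differed by 2-fold in either direction. A gene kept through 1 average alone is likely to differ by the rule itself. Among the 12529 genes at the minimum in both averages, 1084 (8.65%) were higher and 819 (6.54%) were lower. At 4-fold, 763 genes (5.37%) were higher and 468 (3.29%) were lower. The share past 2-fold depended on the level of the gene. Among the 2363 genes with a larger average of 10 to 30 normalized counts, 19.3% were higher and 17.3% lower, whereas among the 1005 genes at 3000 or more, 7.56% were higher and 5.27% lower. Protein-coding genes were more often higher (11.9%) than lower (8.30%) in TFH cells. The split ran the other way for the 351 antisense genes, of which 8.83% were higher and 16.8% lower, and for the 306 lincRNA genes, of which 13.4% were higher and 17.6% lower.

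**Figure D1:**
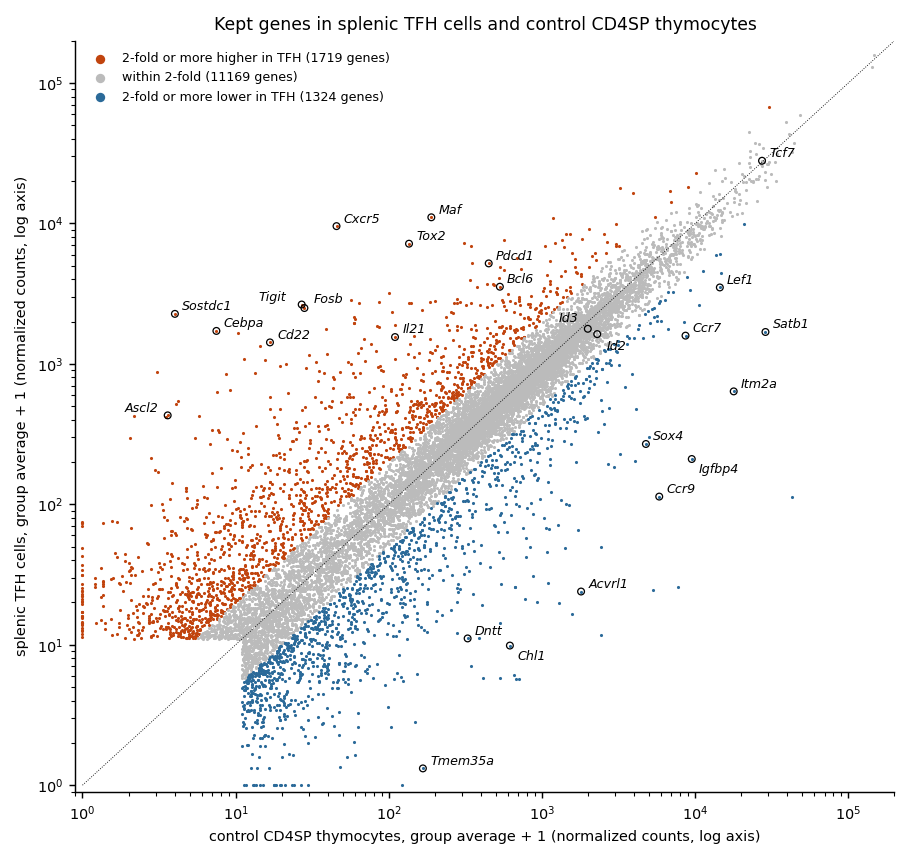
Group averages plus 1 of the 14212 kept genes, in normalized counts on log axes, with splenic TFH cells on the vertical axis and control CD4SP thymocytes on the horizontal axis; each point is 1 gene and the dotted line marks equal values. Cxcr5, Maf, Tox2 and Sostdc1 lie far above the line, Satb1, Itm2a, Ccr9 and Acvrl1 far below it, and Tcf7, Id2 and Id3 lie close to it.

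Both populations carried the RNA of CD4 T cells. Of the 14 genes that define T cells, 0 were 2-fold higher and 1 was 2-fold lower in TFH cells, with a median log2 ratio of -0.12. Cd4 had 20145 normalized counts in TFH cells and 15039 in control CD4SP cells, and Cd3e had 9526 in TFH cells and 10429 in control CD4SP cells. The exception was Zbtb7b, which encodes the CD4-lineage factor ThPOK, at 3228 in TFH cells against 6635 in control CD4SP cells (log2 ratio -1.04). Defining markers of the labelled cell type were thus present in both averages, although markers of B cells were also present in the TFH average. Both populations were sorted as CD4+TCRb+ cells, so the presence of Cd4 and TCR beta RNA is not separate from the gate. All 37 mitochondrially encoded genes were listed at 0 in both averages and were not analysed.

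The 15 genes with the highest log2 ratios were taken from 9363 named genes with a larger average of 100 or more, leaving out T cell receptor and immunoglobulin segments and unnamed gene models, some of which differed by as much. They were Sostdc1, Cebpa, Cxcr5, Ces2d-ps, Gal, Dnase1l3, Ces2c, Ascl2, Jchain, Tigit, Abcc3, Art2a-ps, Fam43a, Fosb and Cd22. All 15 had log2 ratios of 6.41 or more, and 9 of them were under 10 normalized counts in control CD4SP cells. Sostdc1, which encodes a secreted antagonist of BMP and WNT signals and lies at chr12:36314139-36318452 (mm10, plus strand), had 2269 normalized counts in TFH cells and 3.01 in control CD4SP cells, the highest log2 ratio of this pool (9.14). Cebpa, a C/EBP factor of myeloid and liver cells, had 1716 in TFH cells and 6.49 in control CD4SP cells (7.84). Cxcr5, the receptor that draws cells toward CXCL13 in the follicle, lies at chr9:44511787-44561877 on the minus strand. It had 9567.5 normalized counts in TFH cells and 44.6 in control CD4SP cells (7.71). CXCR5 protein was used to sort the TFH cells, so this difference is not separate from the gate, whose part was not tested. The same holds for Cd44, at 4627 in TFH cells and 563 in control CD4SP cells (3.04).

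Other leaders encode secreted proteins and enzymes. Gal, which encodes the neuropeptide galanin, had 294 normalized counts in TFH cells and 1.04 in control CD4SP cells (7.18). Dnase1l3, a secreted nuclease, had 546 in TFH cells and 3.23 in control CD4SP cells (7.02). Abcc3, an ABC transporter, had 843 in TFH cells and 7.63 in control CD4SP cells (6.61). The carboxylesterase gene Ces2c had 515 in TFH cells and 3.07 in control CD4SP cells (6.99), and its neighbour Ces2d-ps, an unprocessed pseudogene, had 424 in TFH cells and 1.17 in control CD4SP cells (7.61). Ces2c and Ces2d-ps are related copies between which reads could have been split, so the value of each is uncertain, and the same applies to Art2a-ps and its paralog Art2b. In 14 of the 15 genes the TFH average was the highest of the 5 group averages in the table. The exception was Jchain, the joining chain of secreted IgM and IgA, which had 415 normalized counts in TFH cells, 768 in lymphomas and 2.53 in control CD4SP cells.

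At the other end, the 15 lowest log2 ratios (-4.88 or less) of the same pool, which leaves out antigen receptor segments and unnamed gene models, belonged to Tmem35a, Adgrg3, Pyroxd2, Acvrl1, Rps15a-ps8, Chl1, Ccr9, Rps15a-ps5, Ampd1, Tspan9, Igfbp4, F13a1, Mex3a, Eng and Dntt. Tmem35a had 0.317 normalized counts in TFH cells and 166 in control CD4SP cells (-6.99). Adgrg3, an adhesion G protein-coupled receptor, had 4.70 in TFH cells and 672 in control CD4SP cells (-6.89). Acvrl1 and Eng, which encode the receptor ALK1 and its coreceptor endoglin for BMP-type ligands, were both among the 15. Acvrl1 had 22.9 in TFH cells and 1799 in control CD4SP cells (-6.23), and Eng had 10.2 in TFH cells and 384 in control CD4SP cells (-5.10). Igfbp4, an insulin-like growth factor binding protein of naive T cells, had 209 in TFH cells and 9504 in control CD4SP cells (-5.50). The RNA-binding protein gene Mex3a had 20.2 in TFH cells and 779 in control CD4SP cells (-5.20). Rps15a-ps8 and Rps15a-ps5 are processed pseudogenes that share sequence with Rps15a, so their counts are uncertain. Rps15a itself had 12926 normalized counts in TFH cells and 9164 in control CD4SP cells (0.50). The TFH average was the lowest of the 5 groups in 13 of the 15 genes, the exceptions being Pyroxd2 and Rps15a-ps8.

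E proteins and the TFH factor Ascl2 bind E-box motifs, so the promoters of these leading genes were read for CAGCTG and CACCTG, the second on either strand as CACCTG or CAGGTG (the first reads the same on both strands, and the motifs do not overlap). Windows of 300 bases, 250 before and 50 after the RefSeq start (GRCm38.p6), were found for 9 of the 15 highest and 11 of the 15 lowest genes. CAGCTG was in at least 1 window of 1 of the 9 highest and 2 of the 11 lowest genes, against 16.3% of all 32851 windows. CACCTG was in 5 of the 9 highest and 3 of the 11 lowest genes, against 20.2% of all windows. A gene was counted when any of its windows held the motif, whereas the percentages are of single windows. The counts and percentages are therefore not directly comparable, and no enrichment is read from them. A match is a description of the letters and not evidence of binding. The windows of 2 TFH genes and of Ccr9, the chemokine receptor gene that was lower in TFH cells, are shown with the motif in capitals, to give the sequence behind these counts. They lie at chr7:142969215-142969514 (minus strand, Ascl2), chr16:43664135-43664434 (minus strand, Tigit) and chr9:123766961-123767260 (plus strand, Ccr9).
Ascl2: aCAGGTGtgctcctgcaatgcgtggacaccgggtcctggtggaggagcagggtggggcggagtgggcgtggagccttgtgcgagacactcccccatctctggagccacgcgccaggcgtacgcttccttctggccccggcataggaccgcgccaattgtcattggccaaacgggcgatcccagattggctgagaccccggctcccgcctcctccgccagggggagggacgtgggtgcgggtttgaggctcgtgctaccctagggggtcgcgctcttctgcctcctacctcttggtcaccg
Tigit: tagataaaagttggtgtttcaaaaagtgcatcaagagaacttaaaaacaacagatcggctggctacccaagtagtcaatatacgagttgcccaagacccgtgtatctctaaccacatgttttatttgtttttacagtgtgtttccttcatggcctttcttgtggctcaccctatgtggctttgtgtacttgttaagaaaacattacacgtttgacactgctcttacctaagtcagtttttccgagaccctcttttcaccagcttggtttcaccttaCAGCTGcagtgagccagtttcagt
Ccr9: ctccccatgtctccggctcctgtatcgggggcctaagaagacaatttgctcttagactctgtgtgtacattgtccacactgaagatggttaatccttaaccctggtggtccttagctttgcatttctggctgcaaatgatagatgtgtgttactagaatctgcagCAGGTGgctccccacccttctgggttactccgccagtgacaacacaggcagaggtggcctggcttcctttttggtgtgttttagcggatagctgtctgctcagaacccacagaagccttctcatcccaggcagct
The motif began at base 2 of the Ascl2 window, at base 277 of the Tigit window and at base 166 of the Ccr9 window, counted from the 5′ end of each.

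To describe the TFH program, its regulators were divided into activators, surface and secreted products, and antagonists. The counts of this and the following lists are to be read beside 12.1% higher and 9.32% lower over all kept genes. Among the 16 kept activators, 8 were 2-fold higher and 3 were 2-fold lower in TFH cells, with a median log2 ratio of 1.36. Bcl6, the repressor that defines the lineage, lies at chr16:23965052-23988852 (minus strand) and had 3543 normalized counts in TFH cells and 530 in control CD4SP cells (2.74). Ascl2, a helix-loop-helix factor that induces Cxcr5, had 429 in TFH cells and 2.60 in control CD4SP cells (6.90). Maf, which drives Il21 and Il4, had 11057 in TFH cells and 188 in control CD4SP cells (5.87). The HMG-box gene Tox2 had 7173 in TFH cells and 134 in control CD4SP cells (5.73). These 4 factors stood well apart between the averages. Smaller differences in the same direction were found for Nfatc1, at 9176 in TFH cells and 2025 in control CD4SP cells (2.18), and for the AP-1 partner Batf, at 1088 in TFH cells and 327 in control CD4SP cells (1.73). Pou2af1, the octamer coactivator OCA-B that B cells also express, had 1883 in TFH cells and 109 in control CD4SP cells (4.10).

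Not all activators followed this direction. Nfatc2 was just short of the 2-fold line, with 2930 normalized counts in TFH cells and 1478 in control CD4SP cells (0.99). Stat3, Tox and Irf4 were within 2-fold, with log2 ratios of 0.46, 0.43 and 0.39. The HMG-box factor Tcf7, which initiates the TFH fate, was abundant in both averages, with 27949 in TFH cells and 27336 in control CD4SP cells (0.03). Its partner Lef1, in contrast, had 3500 in TFH cells and 14495 in control CD4SP cells (-2.05). Basp1 had 54.0 in TFH cells and 355 in control CD4SP cells (-2.69), and Zbtb7b, given among the T cell genes, was the third lower member. Counted per kilobase of exon, the TFH level of Tcf7 was 10647, above those of Tox2 (2109), Maf (1342), Nfatc1 (1229) and Bcl6 (529).

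Among the 22 kept TFH surface and secreted genes, 18 were 2-fold higher and 0 were 2-fold lower, with a median log2 ratio of 2.47. The 18 include Cxcr5, whose protein was used to sort the TFH cells. The inhibitory receptor gene Pdcd1 (PD-1) had 5192 normalized counts in TFH cells and 448 in control CD4SP cells (3.53). The helper cytokines were at different levels in the 2 groups: Il21 had 1551 in TFH cells and 109 in control CD4SP cells (3.82), and Il4 had 415 in TFH cells and 16.8 in control CD4SP cells (4.54). Per kilobase of exon, the TFH levels of Il4 (338) and Il21 (295) were close to each other. Receptors and adaptors of the T-B cell contact were also higher. Slamf6 had 4862 in TFH cells and 531 in control CD4SP cells (3.19), Sh2d1a, which encodes the SLAM adaptor SAP, had 2671 in TFH cells and 830 in control CD4SP cells (1.69), and Btla had 3489 in TFH cells and 1037 in control CD4SP cells (1.75). Cd40lg was near the line, at 2471 in TFH cells and 1203 in control CD4SP cells (1.04). Icos, the costimulator of TFH cells, was within it, at 3621 in TFH cells and 2144 in control CD4SP cells (0.76).

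Other secreted and surface genes of the list differed more. Angptl2 had 2841 normalized counts in TFH cells and 56.0 in control CD4SP cells (5.64). Gpm6b, a membrane glycoprotein gene, had 995 in TFH cells and 20.2 in control CD4SP cells (5.56). The decoy receptor gene Il1r2 had 253 in TFH cells and 11.0 in control CD4SP cells (4.40). P2rx7, an ATP-gated ion channel, had 3972 in TFH cells and 337 in control CD4SP cells (3.55). The others 2-fold higher were Tnfsf8 (3.22), Izumo1r (1.70), Fasl (1.59), Cd200 (1.58) and Il6ra (1.12). The remaining members within 2-fold were Il6st (0.93), Cd84 (0.70) and Il21r, the 1 kept member with a negative log2 ratio (-0.35). Cxcl13 was not kept, with 1.23 normalized counts in TFH cells and 0.362 in control CD4SP cells.

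In the SLAM list, 3 of 8 kept genes were 2-fold higher and 0 were lower, and besides Slamf6 and Sh2d1a the third was Slamf7, with 134 normalized counts in TFH cells and 13.6 in control CD4SP cells (3.21).

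Of 17 kept antagonists, 3 were 2-fold higher and 3 were 2-fold lower. For a list of this size these counts are near the 12.1% higher and 9.32% lower over all kept genes. In all, 13 of the 17 had log2 ratios below 0 (median -0.35). Ccr7, which retains cells in T cell zones, had 1588 normalized counts in TFH cells and 8653 in control CD4SP cells (-2.45). The survival receptor gene Il7r had 1538 in TFH cells and 3997 in control CD4SP cells (-1.38). Selplg (PSGL-1) was just short of the line (-0.94). The naive-state factors Klf2 (-0.56), Foxp1 (-0.48) and Foxo1 (-0.35), and Stat5a (-0.60) and Stat5b (-0.45), were within 2-fold. In contrast, 3 factors of other effector lineages were higher. Tbx21, which encodes T-bet, had 480 in TFH cells and 62.7 in control CD4SP cells (2.92), Runx2 had 337 in TFH cells and 76.4 in control CD4SP cells (2.12), and Prdm1, the Bcl6 antagonist Blimp-1, had 128 in TFH cells and 38.3 in control CD4SP cells (1.71). The other members given here had log2 ratios of -0.01 (Il2ra), -0.04 (Runx3), -0.24 (Gata3) and -0.25 (S1pr1).

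**Figure D2:**
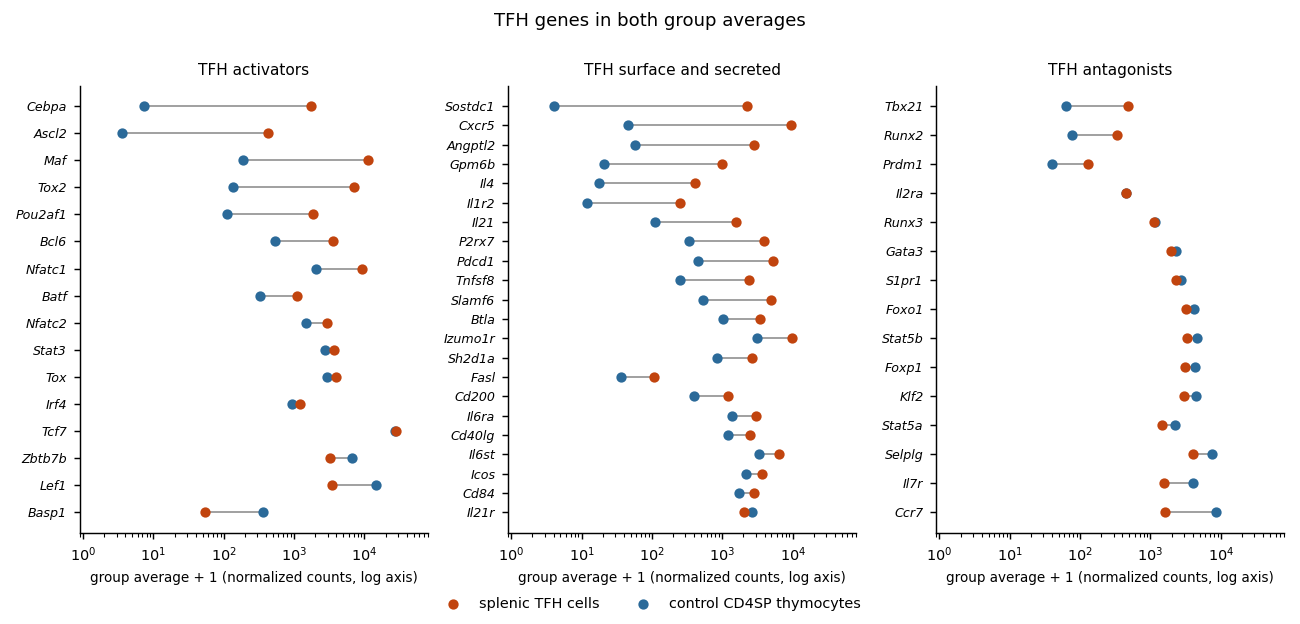
Group averages plus 1, in normalized counts on a log axis, of the kept TFH activators (16) and TFH surface and secreted genes (22) and of 15 of the 17 kept TFH antagonists, ordered by log2 ratio from the top; splenic TFH cells are in orange and control CD4SP thymocytes in blue, joined by a line. All but 1 of the surface and secreted genes have the TFH point on the right, while Lef1, Basp1, Ccr7 and Il7r have it on the left.

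The E and Id protein genes differed little. Id2 had 1628 normalized counts in TFH cells and 2293 in control CD4SP cells (-0.49), and Id3 had 1777 in TFH cells and 1991 in control CD4SP cells (-0.16). Among their targets, Tcf12, which encodes HEB, had 1902 in TFH cells and 1728 in control CD4SP cells (0.14), and Tcf3, which encodes E2A, had 2068 in TFH cells and 3084 in control CD4SP cells (-0.58). Tcf4, which encodes E2-2, had 128 in TFH cells and 252 in control CD4SP cells (-0.97). Thus, of the 7 kept members of the list, 5 were within 2-fold. The exceptions were at low levels: Lyl1, a class II helix-loop-helix gene, had 105 in TFH cells and 4.63 in control CD4SP cells (4.24), and Id1 had 12.2 in TFH cells and 26.4 in control CD4SP cells (-1.06).

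Next, genes that position T cells were compared. Among the 22 kept chemokine and related receptors, 11 were 2-fold higher and 5 were 2-fold lower in TFH cells (median 1.09, or 0.27 at a minimum average of 100). The thymic homing receptor gene Ccr9, at chr9:123678439-123784330 (plus strand), had 112 normalized counts in TFH cells and 5827 in control CD4SP cells (-5.68). Ccr8 had 121 in TFH cells and 1141 in control CD4SP cells (-3.23), and Gpr18 had 260 in TFH cells and 1137 in control CD4SP cells (-2.12). With Ccr7 and Cxcr2, these made up the lower members. Besides Cxcr5, the higher members included receptors of inflamed tissue and of the germinal center. Cxcr3, the receptor of Th1 cells, had 1843 in TFH cells and 85.3 in control CD4SP cells (4.42). S1pr2, which confines cells to the germinal center, had 1334 in TFH cells and 207 in control CD4SP cells (2.69). Cxcr4 had 2633 in TFH cells and 474 in control CD4SP cells (2.47), and Gpr183, the oxysterol receptor EBI2, had 2907 in TFH cells and 712 in control CD4SP cells (2.03). The egress receptor gene S1pr1 was within 2-fold, at 2315 in TFH cells and 2748 in control CD4SP cells. Per kilobase of exon, Cxcr5 (2871) led the receptors named here in TFH cells, followed by Cxcr4 (1456), Cxcr3 (1065) and Gpr183 (1007). In control CD4SP cells Ccr7 (4374) led, followed by S1pr1 (902) and Ccr9 (568). The Ccr9 level was divided by all 10260 annotated exonic bases of the gene. In counts, Ccr9 (5827) was above S1pr1 (2748) in control CD4SP cells, so their order depends on the exonic length used.

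Integrin and adhesion genes were split, with 6 of 23 higher and 5 lower, beside 12.1% higher and 9.32% lower over all kept genes. Cd44, a marker of the TFH sort, had the highest log2 ratio of this list (3.04). Itgb1 had 8397 normalized counts in TFH cells and 1523 in control CD4SP cells (2.46), and its partner Itga4 had 6200 in TFH cells and 2224 in control CD4SP cells (1.48). In the other direction, Itgb3 had 303 in TFH cells and 4995 in control CD4SP cells (-4.04), and Itga5 had 22.2 in TFH cells and 352 in control CD4SP cells (-3.93). Itgal, a chain of the integrin LFA-1, was within 2-fold, with 24033 in TFH cells and 13417 in control CD4SP cells (0.84).

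Genes of immature thymocytes were lower in TFH cells. Of 29 kept members, 14 were 2-fold lower and 1 was 2-fold higher, and the median log2 ratio of -0.92 was the lowest of the biological lists. Itm2a, a membrane protein gene of positively selected thymocytes, had 636 normalized counts in TFH cells and 17856 in control CD4SP cells (-4.81). Satb1, a chromatin organizer of thymocytes, lies at chr17:51736187-51833290 (minus strand) and had 1686 in TFH cells and 28784 in control CD4SP cells (-4.09). Sox4 had 268 in TFH cells and 4770 in control CD4SP cells (-4.15). Dntt, the terminal transferase of antigen receptor recombination, had 10.1 in TFH cells and 326 in control CD4SP cells (-4.88). Rag1 was low in both averages, at 1.23 in TFH cells and 14.2 in control CD4SP cells (-2.77). The heat-stable antigen gene Cd24a, which is lost as thymocytes mature, had 124 in TFH cells and 680 in control CD4SP cells (-2.45). Siglecg was the 1 higher member, with 45.1 in TFH cells and 4.57 in control CD4SP cells (3.05), and it is a gene that B cells express.

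Markers of double-positive (DP) thymocytes, the stage before CD4SP cells, were also mostly lower: 7 of 11 kept DP markers were 2-fold lower and 0 were higher in TFH cells. Rag1, Rag2, Dntt and Ptcra belong to this list and to that of immature thymocytes, so the results of these lists are not separate. The whole DP list of 13 summed to 838 normalized counts in TFH cells and 1720.2 in control CD4SP cells. Cd8a had 26.1 in TFH cells and 128 in control CD4SP cells, and Ptcra was under 1 normalized count in both averages. Their part in the result was not tested. Genes of late thymic maturation were divided, with 8 of 30 higher and 6 lower (median 0.36). H2-Q6, Ly6a and Cd55 led the higher members, whereas Ifngr2 had 200 in TFH cells and 1666 in control CD4SP cells (-3.05). The Gimap genes, GTPases of T cell survival, were mostly within 2-fold. The exception was Gimap5, with 1541 in TFH cells and 759 in control CD4SP cells (1.02).

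Among 25 quiescence and naive-state genes, 7 were 2-fold lower and 2 were 2-fold higher (median -0.35). Bach2, a repressor of effector genes, had 473 normalized counts in TFH cells and 4082 in control CD4SP cells (-3.11). Igfbp4, Satb1, Ccr7, Lef1 and Il7r were also among the lower members. Dapl1 had 236 in TFH cells and 37.5 in control CD4SP cells (2.63), and Klf3 had 2112 in TFH cells and 809 in control CD4SP cells (1.38). Ets1 (-0.13), Btg1 (-0.09) and Foxo3 (-0.03) were abundant in both averages and within 2-fold.

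**Figure D3:**
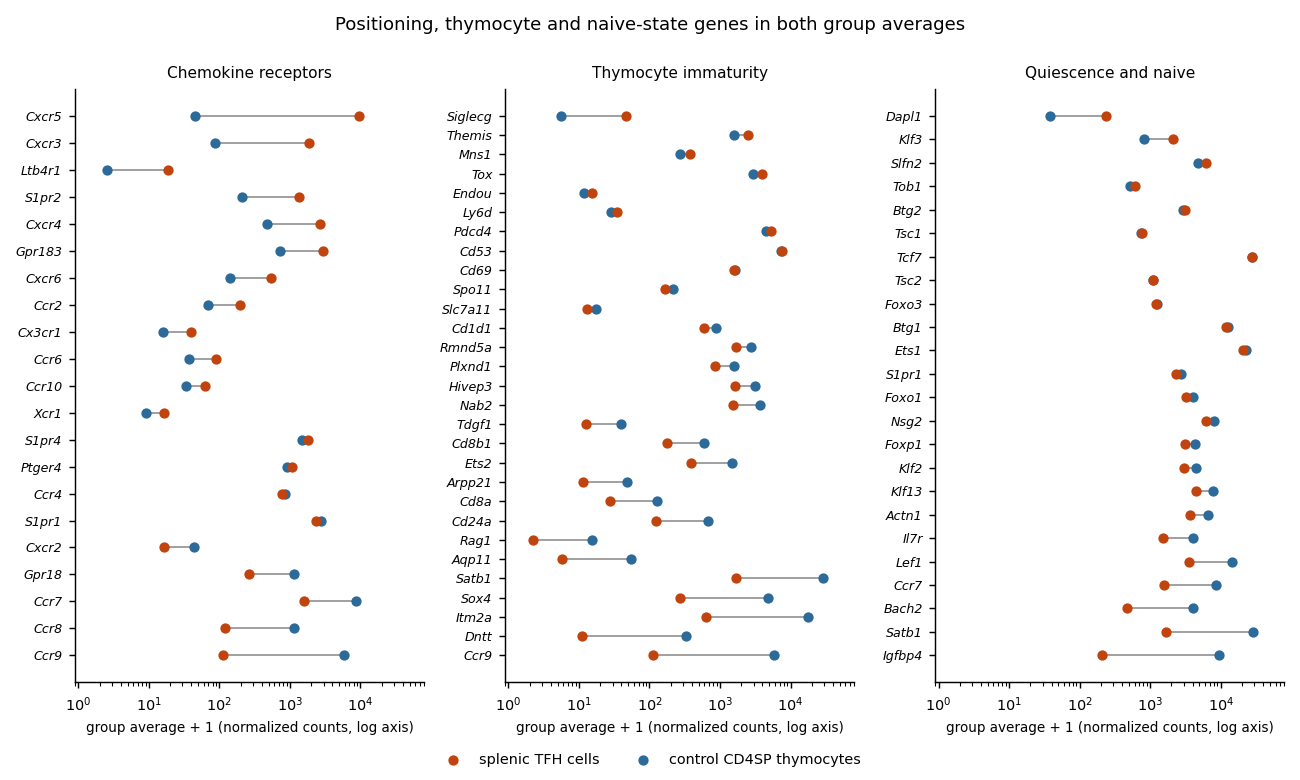
Group averages plus 1, in normalized counts on a log axis, of 21 of the 22 kept chemokine and related receptors, of the kept genes of thymocyte immaturity (29) and of 24 of the 25 kept genes of quiescence and the naive state, ordered by log2 ratio from the top; splenic TFH cells are in orange and control CD4SP thymocytes in blue. Cxcr5 and Cxcr3 have the TFH point far on the right, and Ccr9, Itm2a, Satb1 and Igfbp4 have it far on the left.

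Effector and memory genes were higher in TFH cells. Of 30 kept, 21 were 2-fold higher and 1 was 2-fold lower (median 1.99). The TFH cells were sorted as CD44high and the control cells were not, and Cd44 is itself among the higher members. The part of this gate in the other members was not tested. Gzmk, a granzyme, had 169 normalized counts in TFH cells and 2.10 in control CD4SP cells (5.78). Ccl5, the chemokine RANTES, had 583.5 in TFH cells and 15.7 in control CD4SP cells (5.13). The calcium-binding protein genes S100a4 (5.03), S100a6 (4.25) and S100a11 (3.26) were also higher. Eomes, a T-box factor of memory cells, had 486 in TFH cells and 37.2 in control CD4SP cells (3.67). Vim, which encodes vimentin, went against the list, with 4420 in TFH cells and 14785 in control CD4SP cells (-1.74). Id2, also in this list, was lower within 2-fold (-0.49).

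Of 23 costimulatory and checkpoint genes, 11 were 2-fold higher and 0 were 2-fold lower (median 0.93). Tigit had 2646 normalized counts in TFH cells and 26.0 in control CD4SP cells (6.62), Lag3 had 1761 in TFH cells and 38.0 in control CD4SP cells (5.50), and Ctla4 had 2877 in TFH cells and 279 in control CD4SP cells (3.36). These 3 genes encode inhibitory receptors. Cd28 was abundant in both averages, at 7156 in TFH cells and 5233 in control CD4SP cells (0.45). The costimulatory TNF receptors Tnfrsf9 (-0.67), Tnfrsf18 (-0.57) and Tnfrsf4 (-0.37) had negative log2 ratios within 2-fold.

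Several of these genes also mark regulatory T cells, and 11 of 23 genes of the regulatory T cell list were 2-fold higher and 4 were lower. Foxp3, its defining factor, was within 2-fold, with 1016 normalized counts in TFH cells and 591 in control CD4SP cells (0.78). Il2ra, the high-affinity IL-2 receptor chain, was nearly equal, with 454 in TFH cells and 455 in control CD4SP cells. Nt5e, the ecto-enzyme CD73, had 2747 in TFH cells and 183 in control CD4SP cells (3.90), and Nrp1 had 2730 in TFH cells and 279 in control CD4SP cells (3.29). On the other side, Gpr83 had 144 in TFH cells and 1098 in control CD4SP cells (-2.92), and Ikzf4 had 251 in TFH cells and 1072 in control CD4SP cells (-2.09). How many regulatory T cells either sort held was not measured.

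Cytokine genes had a median log2 ratio of 2.52, the highest of the biological lists, with 10 of 17 kept members 2-fold higher and 2 lower. Over all kept genes the shares were 12.1% higher and 9.32% lower. Of the 25 listed genes 17 were kept, and those kept through 1 average alone are likely to differ by the rule itself. Among these, Ifng, Il10 and Spp1 were under 10 normalized counts in control CD4SP cells, and Il13 and Csf2 were under 10 in TFH cells. Besides Il21 and Il4, Ifng had 328 normalized counts in TFH cells and 6.81 in control CD4SP cells (5.40), and Il10 had 66.9 in TFH cells and 1.09 in control CD4SP cells (5.03). Spp1, which encodes osteopontin, had 74.8 in TFH cells and 0.564 in control CD4SP cells (5.60). Tnf had 1143 in TFH cells and 226 in control CD4SP cells (2.33). Il2 had 70.0 in TFH cells and 11.4 in control CD4SP cells (2.52). By contrast, Il13 had 2.83 in TFH cells and 10.8 in control CD4SP cells (-1.62), and Csf2 had 3.47 in TFH cells and 11.6 in control CD4SP cells (-1.50). Tgfb1 had 2425 in TFH cells and 4509 in control CD4SP cells (-0.89). Il17a was not kept, with 1.97 in TFH cells and 0.225 in control CD4SP cells.

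Of 33 kept cytokine receptor genes, 13 were 2-fold higher and 6 were lower (median 0.35, or 0.12 at a minimum average of 100). Il9r had 866 normalized counts in TFH cells and 12.4 in control CD4SP cells (6.02), and Il1r1 had 337 in TFH cells and 6.00 in control CD4SP cells (5.59). Il2rb, the IL-2 and IL-15 receptor chain, had 6135 in TFH cells and 1559 in control CD4SP cells (1.98). The shared chain gene Il2rg was within 2-fold, with 8387 in TFH cells and 12654 in control CD4SP cells (-0.59). Il4ra had 975 in TFH cells and 3182 in control CD4SP cells (-1.71). In the JAK-STAT list, Stat4, the transducer of IL-12, had 2529 in TFH cells and 436 in control CD4SP cells (2.53), Socs3 had 1281 in TFH cells and 307 in control CD4SP cells (2.06), and Socs1 had 624 in TFH cells and 1386 in control CD4SP cells (-1.15).

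In the TNF superfamily, 10 of 26 genes were 2-fold higher and 1 was lower. Tnfrsf8, which encodes CD30, had 336 normalized counts in TFH cells and 6.68 in control CD4SP cells (5.45), and its ligand gene Tnfsf8 had 2359 in TFH cells and 252 in control CD4SP cells (3.22). Tnfsf14 (LIGHT) had 1041 in TFH cells and 68.6 in control CD4SP cells (3.91). Tnfrsf1a was the lower member, with 455 in TFH cells and 1042 in control CD4SP cells (-1.19). Among 23 NF-kB genes, 5 were higher and 1 was lower, beside 12.1% higher and 9.32% lower over all kept genes. The inhibitor Tnfaip3, or A20, had 6820 in TFH cells and 1402 in control CD4SP cells (2.28), while Nfkb1 had 5314 in TFH cells and 4671 in control CD4SP cells (0.19). Traf4 had 404 in TFH cells and 1920 in control CD4SP cells (-2.24).

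The TCR signalling machinery differed little: of 37 genes, 2 were 2-fold higher and 1 was lower, with a median of -0.06. The scaffold gene Malt1 had 4302 normalized counts in TFH cells and 1083 in control CD4SP cells (1.99), and the phosphatase gene Ptpn22 had 4201 in TFH cells and 1325 in control CD4SP cells (1.66). Lck was nearly equal, with 17531 in TFH cells and 18262 in control CD4SP cells (-0.06). The genes that TCR signals induce went both ways, with 6 of 30 higher and 7 lower, beside 12.1% higher and 9.32% lower over all kept genes. The immediate early receptors Nr4a1 and Nr4a3 were lower: Nr4a1 had 1585 in TFH cells and 5274 in control CD4SP cells (-1.73), and Nr4a3 had 576 in TFH cells and 1862 in control CD4SP cells (-1.69). Myc had 626 in TFH cells and 1576 in control CD4SP cells (-1.33). Conversely, the ERK feedback gene Spry1 had 631 in TFH cells and 73.3 in control CD4SP cells (3.09), and Gadd45b had 1747 in TFH cells and 277 in control CD4SP cells (2.65). Egr2 (-0.04) and Egr3 (0.21), which act downstream of NFAT, were within 2-fold.

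AP-1 factors, in contrast, were mostly higher in TFH cells, with 8 of 14 genes 2-fold higher and 3 lower (median 1.96). Fosb had 2498 normalized counts in TFH cells and 27.1 in control CD4SP cells (6.47). Fos had 7306 in TFH cells and 307 in control CD4SP cells (4.57), Jun had 4101 in TFH cells and 526 in control CD4SP cells (2.96), and Junb had 17752 in TFH cells and 3234 in control CD4SP cells (2.46). Fos, Jun and their relatives are also induced when cells are handled and dissociated. Genes of the stress and dissociation list were also mostly higher: 11 of 19 kept members were 2-fold higher and 0 were lower (median 2.06). Fos, Fosb, Jun and Junb belong to both lists, so the counts overlap and are not separate observations. The stress list of 20 summed to 98632 in TFH cells and 69014 in control CD4SP cells. The heat shock gene Hspa1a had 1303 in TFH cells and 65.1 in control CD4SP cells (4.30), while Hspa8 had 19993 in TFH cells and 33913 in control CD4SP cells (-0.76), and Egr1 had 2685 in TFH cells and 4829 in control CD4SP cells (-0.85). The part of handling in the AP-1 result was not tested.

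Among 33 lineage-specifying factors, 15 were 2-fold higher and 6 were lower (median 0.94). Klf4 had 965 normalized counts in TFH cells and 18.6 in control CD4SP cells (5.62). Nfil3 had 371 in TFH cells and 17.7 in control CD4SP cells (4.31). The hypoxia factor gene Hif1a had 7591 in TFH cells and 1357 in control CD4SP cells (2.48). Zbtb16, which encodes the innate T cell factor PLZF, was low in both averages, with 48.2 in TFH cells and 116 in control CD4SP cells (-1.25). Sox13 had 18.4 in TFH cells and 127 in control CD4SP cells (-2.73).

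Of 24 TGF-beta and BMP genes, 5 were lower and 2 were higher (median -0.42), beside 9.32% lower and 12.1% higher over all kept genes. Besides Acvrl1 and Eng, the inhibitory Smad gene Smad7 had 329 normalized counts in TFH cells and 1652 in control CD4SP cells (-2.32), and Tgfbr3, or betaglycan, had 720 in TFH cells and 1476 in control CD4SP cells (-1.03). The ligand genes Bmp7 and Tgfb3 were the higher members: Bmp7 had 883 in TFH cells and 90.1 in control CD4SP cells (3.28), and Tgfb3 had 173 in TFH cells and 20.9 in control CD4SP cells (2.99). WNT genes were evenly split, with 4 of 16 in each direction. Among NOTCH genes, 4 of 19 were higher and 1 was lower, and the ubiquitin ligase gene Dtx1 had 5615 in TFH cells and 1650 in control CD4SP cells (1.77). PI3K and mTOR genes were mostly alike, with 2 of 32 higher and 3 lower. The regulatory subunit gene Pik3r3 had 34.6 in TFH cells and 320 in control CD4SP cells (-3.17), and the Akt phosphatase gene Phlpp2 had 291 in TFH cells and 63.6 in control CD4SP cells (2.18). The glucocorticoid response list was evenly split, with 2 of 13 genes in each direction, and of 6 CDK inhibitor genes 2 were higher and 1 was lower. The counts of these other lists are to be read beside the same shares over all kept genes.

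**Figure D4:**
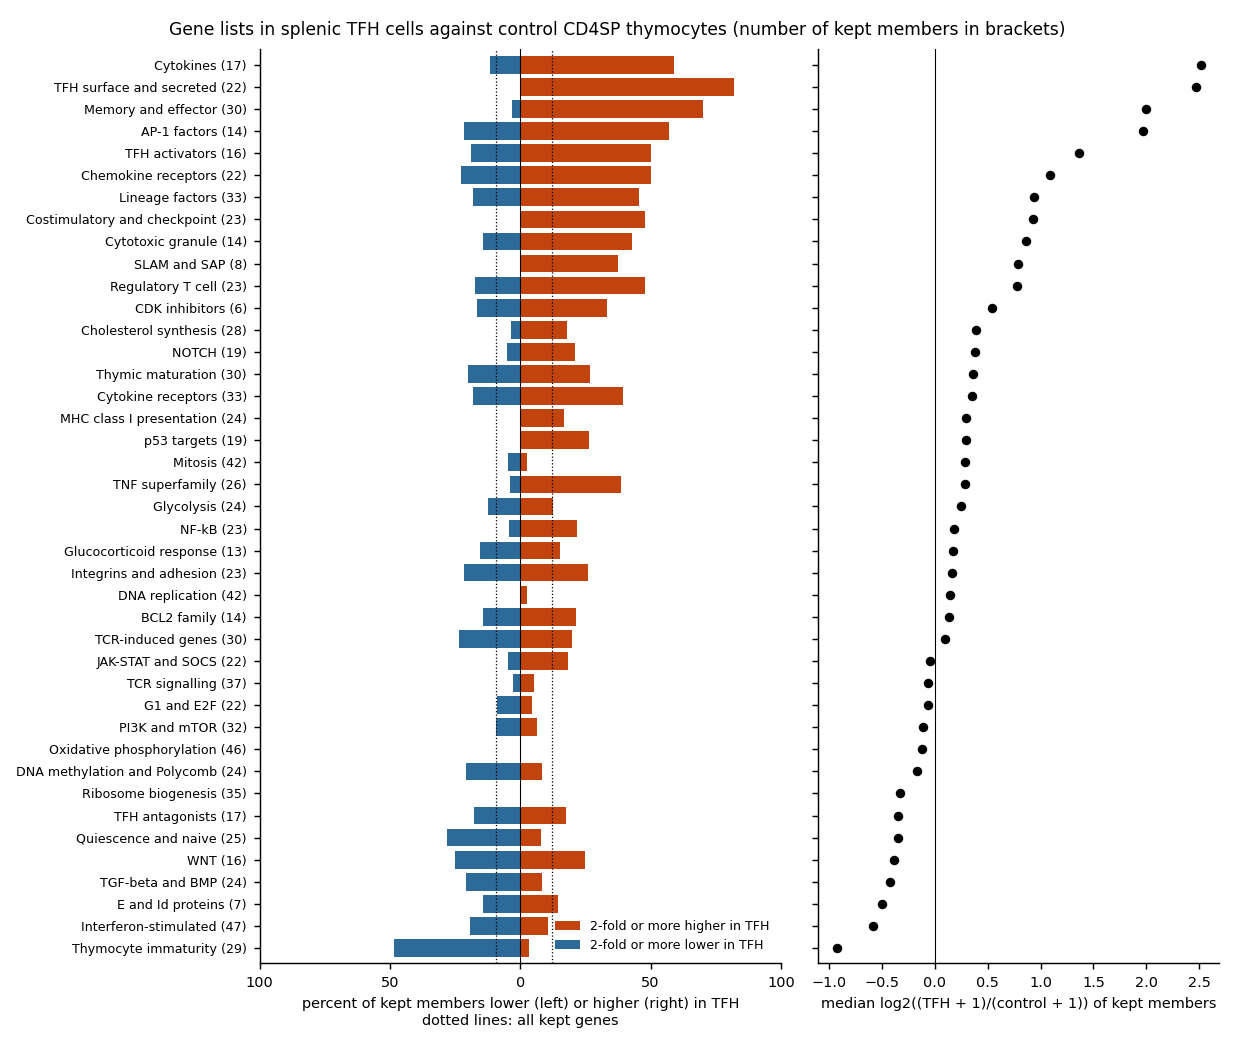
For each of the biological gene lists, the percent of kept members 2-fold or more higher in TFH cells (orange, right) and 2-fold or more lower (blue, left), with dotted lines at the shares over all kept genes (12.1% and 9.32%), and beside them the median log2 ratio of the kept members. Cytokines, TFH surface and secreted genes and memory genes have the highest medians, genes of thymocyte immaturity the lowest, and the bars of oxidative phosphorylation and ribosome biogenesis are empty.

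Of 42 DNA replication genes, 1 was 2-fold higher (Mcm6, 1.03) and 0 were lower (median 0.15). Of 42 mitosis genes, 1 was higher (Ccnb1, 1.13) and 2 were lower (Kif23, -1.19, and Stmn1, -1.29), and the proliferation marker Mki67 had 2353 normalized counts in TFH cells and 2179 in control CD4SP cells (0.11). In the G1 and E2F list, 1 of 22 genes was higher and 2 were lower (median -0.06). The cyclin gene Ccnd2 had 6040 in TFH cells and 14610.0 in control CD4SP cells (-1.27), and Ccnd3 had 2810 in TFH cells and 5861 in control CD4SP cells (-1.06). The phosphatase gene Cdc25b was the higher member, with 2775 in TFH cells and 554 in control CD4SP cells (2.32). All 46 kept oxidative phosphorylation genes (median -0.12) and all 35 ribosome biogenesis genes (median -0.32) were within 2-fold. In the ribosome list 32 of 35 log2 ratios were below 0, and cytosolic ribosomal protein genes had a median of -0.31, with 1 of 84 past 2-fold. Of 24 glycolysis genes, 3 were past 2-fold in each direction, shares near the 12.1% and 9.32% over all kept genes: Aldoc had 116 in TFH cells and 15.6 in control CD4SP cells (2.81), and Ldhb had 589 in TFH cells and 1876 in control CD4SP cells (-1.67). Among 28 cholesterol synthesis genes, 5 were higher and 1 was lower, and the lower one, the efflux pump gene Abca1, had 114 in TFH cells and 670 in control CD4SP cells (-2.54).

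Of 14 genes of the BCL2 survival family, 3 were higher and 2 were lower, which is near the shares over all kept genes for a list of this size (median 0.14, or -0.01 at a minimum average of 100). Bcl2, the prosurvival protein of naive T cells, had 689 normalized counts in TFH cells and 3463 in control CD4SP cells (-2.33). Its antagonist Bcl2l11, or Bim, had 393 in TFH cells and 1622 in control CD4SP cells (-2.04). Bcl2a1b had 1843 in TFH cells and 293 in control CD4SP cells (2.65), although it belongs to a family of near-identical genes and its reads may be split. Of 19 p53 target genes, 5 were higher and 0 were lower, and Cdkn1a had 55.6 in TFH cells and 8.66 in control CD4SP cells (2.55). Trp53 itself had 2819 in TFH cells and 3693 in control CD4SP cells (-0.39).

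Of 47 interferon-stimulated genes, 9 were lower and 5 were higher, beside 9.32% lower and 12.1% higher over all kept genes. In all, 36 of the 47 log2 ratios were below 0 (median -0.58). Oas2 had 67.0 normalized counts in TFH cells and 1056 in control CD4SP cells (-3.96). Ifit1 had 585 in TFH cells and 1491 in control CD4SP cells (-1.35). Against the list, Cxcl10, a chemokine that interferon-gamma induces, had 647 in TFH cells and 8.15 in control CD4SP cells (6.14). Among 24 class I presentation genes, 4 were higher and 0 were lower. H2-K1 had 67054 in TFH cells and 30520 in control CD4SP cells (1.14), and H2-D1 was just short of the line, with 44612 in TFH cells and 22429 in control CD4SP cells (0.99). H2-Q6 had 6964 in TFH cells and 342 in control CD4SP cells (4.34), but the H2-Q genes are near-identical copies and their counts are uncertain.

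DNA methylation and Polycomb genes were lower for 5 and higher for 2 of 24 members, beside 9.32% lower and 12.1% higher over all kept genes. Tet1, a methylcytosine dioxygenase, had 108 normalized counts in TFH cells and 976 in control CD4SP cells (-3.17), whereas Tet2 (-0.41) and Tet3 (-0.57) were within 2-fold. The Polycomb subunit gene Cbx2 had 137 in TFH cells and 546 in control CD4SP cells (-1.99), and Cbx7 had 3146 in TFH cells and 1252 in control CD4SP cells (1.33). Dnmt3a had 1358 in TFH cells and 3158 in control CD4SP cells (-1.22). Among cytotoxic granule genes, 6 of 14 were higher and 2 were lower, and Prf1, which encodes perforin, was low in both averages, with 42.8 in TFH cells and 62.6 in control CD4SP cells (-0.54).

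Markers of B cells accompanied the TFH average. Of 21 kept B cell markers, 18 were 2-fold higher and 0 were lower (median 3.16), and the list of 22 genes in the table summed to 16583 normalized counts in TFH cells and 2049 in control CD4SP cells, with 0 of the 22 at 0 in either average. Ighm made up most of the sum, with 10902 in TFH cells and 1183 in control CD4SP cells (3.20), and Igkc had 1670 in TFH cells and 9.41 in control CD4SP cells (7.33). Among the defining markers, Cd79a had 145 in TFH cells and 38.3 in control CD4SP cells (1.90), and Pax5 had 64.1 in TFH cells and 4.22 in control CD4SP cells (3.64). All 55 kept immunoglobulin segments were 2-fold higher in TFH cells, but this count is largely set by the rule. Of the 240 segments in the table, 162 were at 0 in control CD4SP cells. The control averages summed to 1248, of which Ighm had 1183, so most of the 55 were kept through the TFH average. Of 13 kept germinal center B and plasma cell markers, 10 were higher and 0 were lower. The part of B cell RNA in the values of Jchain, Pou2af1, Siglecg, Cd22 and the immunoglobulin and class II genes was not tested. Cd22, an inhibitory receptor of B cells, had 1421 in TFH cells and 15.8 in control CD4SP cells, and per kilobase of exon its TFH level (282) was above those of Cd79a (99.7) and Ms4a1 (13.2).

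Markers of other lineages were also counted. In the myeloid and dendritic cell list, 5 of 12 kept members were higher and 1 was lower, and the whole list summed to 3736 normalized counts in TFH cells and 2980 in control CD4SP cells, with C1qa, C1qb, Cd14 and Adgre1 each under 10 normalized counts in both averages. Granulocyte markers summed to 56.9 in TFH cells and 68.7 in control CD4SP cells. Among NK and gamma-delta T cell markers, 3 of 15 were higher and 7 were lower, while the list summed to 999 in TFH cells and 631 in control CD4SP cells, and Sox13 and the 3 Tcrg constant genes were among the lower ones. TCR V-beta genes were alike, with 0 of 20 past 2-fold in either direction, and of 93 kept V-alpha genes 2 were higher and 7 were lower, some of them duplicated copies with identical values. Xist and the Y-linked genes Ddx3y, Kdm5d, Uty and Eif2s3y were present in both averages, so each average drew on both sexes, and 0 of 5 were past 2-fold.

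**Figure D5:**
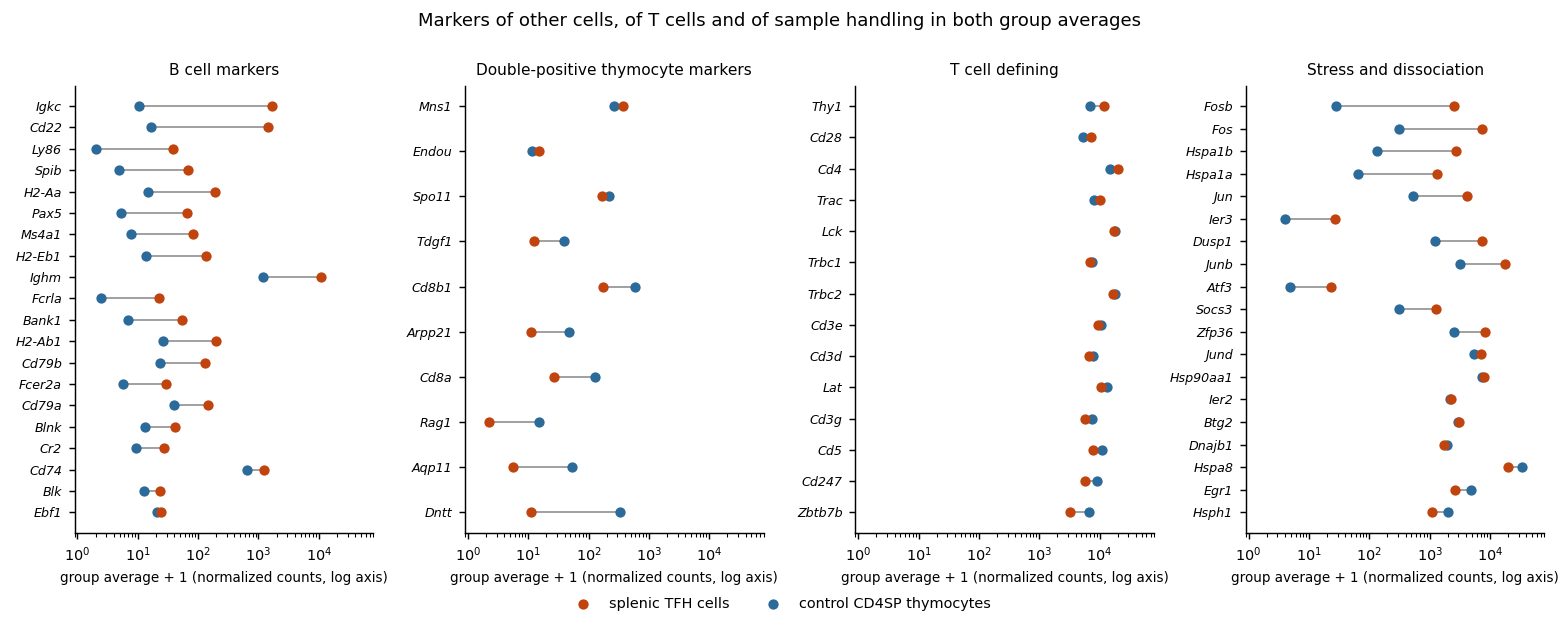
Group averages plus 1, in normalized counts on a log axis, of 20 of the 21 kept markers of B cells, of 10 of the 11 of double-positive thymocytes, of the kept markers of T cells (14) and of the kept stress and dissociation genes (19), ordered by log2 ratio from the top; splenic TFH cells are in orange and control CD4SP thymocytes in blue. The B cell markers have the TFH point on the right, most DP thymocyte markers have it on the left, and the T cell markers overlap.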

How the data were processed

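RNA-seq was performed on sorted TFH cells and CD4SP thymocytes with strand-specific libraries on an Illumina HiSeq instrument. The authors aligned reads to mm10 with OSA in Array Studio, estimated gene counts with RSEM and normalized them with DESeq; their versions are not given in the sources used. The deposited table holds, as signal, the authors' average of normalized counts per gene for each of 5 groups, with 1 column per group and 0 columns per library. The depth of each library is therefore unknown, and no interval, error or test was computed. Its other columns hold the authors' comparisons (fold changes, p-values and adjusted p-values) and were not used.

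Gene IDs were matched to GENCODE M21 (37693 of 39179 matched), which also gave positions and exonic lengths. Genes with a larger average of 10 or more were kept, 1 was added to both averages, and log2 ratios of TFH over control CD4SP cells were called at 2-fold and 4-fold. Text names the 15 highest and 15 lowest named genes at 100 or more, all kept members of the TFH and E/Id lists, and, of each other list, up to 6 members with the largest differences, the one highest in control, and members near 2-fold or against their list. The 54 gene lists were written by hand, and the members and the lists were chosen with earlier results of these data known. Alternatives were the pseudocount (0 or 10), scaling, the minimum average (0 or 100), and leaving out TCR and immunoglobulin segments or chromosomes X and Y. The code that makes the calls was checked on simulated averages. The analysis used Python 3.11.15, pandas 2.3.3 and NumPy 2.4.6. No paired or leave-one-out fit was run. Some members of the lists are counted but not reported here by name.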

Additional observations from a re-analysis of the deposited data

How the results depend on the processing

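Raising the minimum of the larger average to 100 normalized counts left 899 genes 2-fold higher and 597 lower in TFH cells, out of 9965. With no filter on low values, 2726 genes were higher and 3746 were lower, out of 31243. Lower genes thus outnumbered higher ones without the filter, and the cause was not tested. Under the other alternatives the number of higher genes lay between 1360 and 1759, and the number of lower genes between 937 and 1390. Leaving out the marker lists of B cells, germinal center B and plasma cells and stress, together with the immunoglobulin segments, gave 1630 higher and 1324 lower genes; this alternative was chosen after seeing the data. Of 54 list medians, 9 were 1 or more (8 to 10 under the alternatives) and 3 were -1 or less (2 or 3). With the minimum at 100, the NK and gamma-delta T cell list had a median of 1.63, against -0.68, and 17 list medians moved by over 0.1. Beside those given in the report, WNT genes had -0.02, against -0.38, CDK inhibitors had 0.26, against 0.54, TGF-beta and BMP genes had -0.65, against -0.42, E and Id proteins had -0.33, against -0.49, and cytotoxic granule genes had 1.59, against 0.86. Of 88 named genes, Id1 dropped out of the 2-fold calls with a pseudocount of 10 (-0.72), and Nfatc2 entered them after a shift to a median of 0 (1.00); the others kept their side of the 2-fold line under each pseudocount and scaling, and their direction except Il2ra, which was near 0 (-0.01, or 0.01 after the shift). No paired analysis was possible because the columns hold group averages alone, and no library could be left out in turn for the same reason. What depth limits cannot be given from averages alone.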

Other observations

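Gene groups outside the lists of the report were also described, each chosen after its values were seen. Inflammasome and interleukin-1 family genes were 2-fold higher in TFH cells for 12 of 17 kept members and lower for 1 (median log2 ratio 2.24). Casp1, the protease that matures IL-1 and IL-18, had 1056 normalized counts in TFH cells and 14.5 in control CD4SP cells (6.09), and Casp4 had 1151 in TFH cells and 29.0 in control CD4SP cells (5.26). Nlrp1a was the lower member, with 5.78 in TFH cells and 28.9 in control CD4SP cells (-2.14). Genes of extracellular nucleotide signalling were higher for 9 of 14 kept members and lower for 2 (median 1.34). Besides P2rx7 and Nt5e, the adenosine receptor gene Adora2a had 1065 in TFH cells and 181 in control CD4SP cells (2.55), whereas the deaminase gene Ada had 72.7 in TFH cells and 181 in control CD4SP cells (-1.30).

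Among regulators of G protein signalling, which shorten chemokine receptor signals, 5 of 12 were higher and 1 was lower. Rgs1 had 1574 normalized counts in TFH cells and 145 in control CD4SP cells (3.43), and Rgs16 had 936 in TFH cells and 152 in control CD4SP cells (2.62). Of 15 protein tyrosine phosphatases, 6 were higher and 1 was lower. Ptpn13 had 1955 in TFH cells and 57.9 in control CD4SP cells (5.05), and Ptpn11, which encodes SHP2, had 8460.4 in TFH cells and 1438 in control CD4SP cells (2.56). KLF factors were higher for 5 of 10 members and lower for 0. Serpins were higher for 8 of 12 and lower for 2, led by Serpina3g with 622 in TFH cells and 20.8 in control CD4SP cells (4.83). All 8 kept H2-Q genes were 2-fold higher, but they are near-identical copies between which reads could be split. Toll-like receptors went both ways: Tlr9 had 94.5 in TFH cells and 4.51 in control CD4SP cells (4.11), and Tlr7, on chromosome X, had 18.3 in TFH cells and 407 in control CD4SP cells (-4.40).

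A set of 12 unnamed gene models differed widely between the group averages. Their summed average was 205 normalized counts in TFH cells, 728 in Id3KO CD4SP cells, 114164 in dKO CD4SP cells, 93.4 in lymphomas and 61779 in control CD4SP cells. The model Gm10800 alone had 111 in TFH cells and 42675 in control CD4SP cells, and 489 in Id3KO CD4SP cells. Whether all libraries of a group carried these values cannot be seen from averages.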
